A study of Homo sapiens with 12 samples.

Results

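The genes described are the 3 ligands of the transforming growth factor beta (TGF-β) subfamily (TGFB1, TGFB2 and TGFB3), the 3 receptors that bind them (TGFBR1, TGFBR2 and TGFBR3) and 3 genes of negative feedback on the pathway (SMAD7, SKIL and PMEPA1). They were taken by gene symbol, and all 9 were found among the 60106 genes counted in each library. RNA was sequenced from 2 established human prostate cancer cell lines, each with 3 libraries from cells given a non-targeting siRNA (NSI) and 3 from cells given an siRNA against FOXA1 (siFOXA1), a forkhead transcription factor of the prostate epithelium. PC3 cells, in RPMI-1640, received 20 nM of siRNA, and VCaP cells, in DMEM, received 40 nM. RNA was taken after 72 hours. The PC3 libraries were made from polyadenylated RNA and counted without regard to strand, whereas the VCaP libraries were made from total RNA and counted by strand. A difference between the lines therefore cannot be told apart from a difference in dose, medium, library kit or counting. The labels do not say whether replicates were separate cultures, so the p-values below measure only the spread between these libraries.

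TGF-β ligands are secreted in latent form, bound to a propeptide and often to a latent TGF-β binding protein, and are released by proteases and integrins. The active ligand binds TGFBR2, which phosphorylates TGFBR1, which in turn phosphorylates SMAD2 and SMAD3. These join SMAD4 and act on genes in the nucleus. TGFBR3, also called betaglycan, is a co-receptor that presents ligand, TGFB2 above all. SMAD7 blocks the receptors, SKIL (SnoN) represses SMAD complexes, and PMEPA1 is a membrane protein that holds back receptor-activated SMADs. The pathway itself induces all 3 feedback genes, and androgen also induces PMEPA1. In prostate epithelium TGF-β restrains growth, and in carcinoma it is known for invasion and bone metastasis. TGFB3 is known as a gene that FOXA1 represses.

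The 9 genes were proposed with the contrast of siFOXA1 and NSI known, that is, they were selected on the fold changes of siFOXA1 against NSI in these libraries, so those differences are described with a standard error (SE) and no test. A gene is called where its adjusted p is under 0.05 in a fit across all genes tested, and for these 9 genes that count is a description. Levels are in CPM, a gene's count scaled to the total count of its library, with TMM factors computed in each line. Levels of different genes are compared only as CPM per kilobase of exon.

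The siRNA target was lower in both lines. FOXA1 (ENSG00000129514.5_2, chromosome 14, 38059189 to 38064239 on GRCh37) fell in PC3 to 62.3% of its NSI mean (log2 fold change −0.68, SE 0.10, edgeR adjusted p 0.00220) and in VCaP to 16.5% (−2.60, SE 0.09, adjusted p 1.84e-07), with no overlap between the groups. The PC3 libraries held 123140099 to 188226483 counts and the VCaP libraries 48187047 to 59839211. All 4 epithelial markers (KRT8, KRT18, EPCAM, CDH1) were at 1 CPM or more in each group. Of 6 prostate luminal markers all were present in VCaP, while KLK3, KLK2 and TMPRSS2 were under 1 CPM in PC3. The leukocyte markers PTPRC and CD3E were under 1 CPM in every group, and with CD68 the list summed to 26.3 to 29.6 CPM in PC3 NSI and 43.9 to 49.4 CPM in PC3 siFOXA1. The summed level of 4 fibroblast markers was 23.7 to 27.98 CPM in PC3 NSI and 43.3 to 48.5 in PC3 siFOXA1, and 10.8 to 20.2 in VCaP NSI and 1.43 to 7.30 in VCaP siFOXA1. COL3A1 and LUM were each under 1 CPM in 3 of the 4 groups. The lower VCaP sum was mostly LUM, which averaged 10.5 CPM in NSI and 0.667 CPM in siFOXA1. In the same groups COL1A1 averaged 2.10 and 1.05 CPM, COL1A2 1.12 and 0.833 CPM, and COL3A1 0.586 and 0.991 CPM. In bulk RNA, fewer cells of a type and less RNA per cell cannot be told apart.

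Among the ligands, TGFB3 was low in VCaP with NSI and was the leading ligand there with FOXA1 siRNA. TGFB3 (ENSG00000119699.7_2, chromosome 14, 76424545 to 76447534, minus strand) encodes a ligand with roles in palate and lung development. In VCaP it was at 0.751, 0.677 and 0.695 CPM in the NSI libraries and at 71.3, 85.1 and 93.6 CPM in the siFOXA1 libraries. The 3 NSI values lay close together, and every siFOXA1 library was far above all of them. The means were 0.708 ± 0.0384 and 83.3 ± 11.3 CPM (SD, n = 3 each), resting on 113 and 12786 counts summed over the libraries, a ratio of 118 and a log2 difference of 6.87 (SE 0.14). In PC3 it was at 7.99, 10.4 and 7.22 CPM in NSI and at 9.87, 12.1 and 13.2 CPM in siFOXA1. Those groups overlapped, because NSI replicate 2 lay above siFOXA1 replicate 1. The PC3 log2 difference was 0.46 (SE 0.16), not called in the main fit. It was called in 5 of 12 alternatives, among them the model with the replicate number (0.47, SE 0.12). It was 0.67 without NSI replicate 2, where it was also called. The exons of TGFB3 overlap those of RP11-270M14.5, on the other strand, over 5.87% of their length, and that gene averaged under 1 CPM in all 4 groups.

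The sequence before a TGFB3 start site is shown because TGFB3 had the largest difference of the 9 genes. It is the 250 bases before the RefSeq start site nearest to the gene's start in the deposited annotation, at position −804 relative to that start. The bases come from the RefSeq promoter table, built on GRCh38.p14, and were placed on GRCh37 by an exact match at chr14:76448339-76448588, minus strand. They lie in no annotated exon of the deposited gene models. Capitals mark TATAAA, the TATA box letters, 25 to 30 bases before the start.
TGFB3: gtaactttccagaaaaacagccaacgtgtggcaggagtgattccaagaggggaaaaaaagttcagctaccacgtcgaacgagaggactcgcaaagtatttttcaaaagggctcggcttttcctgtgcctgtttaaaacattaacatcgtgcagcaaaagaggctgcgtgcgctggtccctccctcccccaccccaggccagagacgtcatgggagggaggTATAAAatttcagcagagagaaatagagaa
The core forkhead motif was searched on both strands as TGTTTAC or as TATTTAC, and with G as the fifth letter, as TGTTGAC or as TATTGAC, and none of these is in this window or in the other TGFB3 window of the table. TATAAA, on either strand, was in 3 of the 23 windows of the 9 genes and in 10.7% of all 35116 windows of that length in the table.

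TGFB1 (ENSG00000105329.9_2, chromosome 19, 41836228 to 41859816, minus strand) was the leading ligand of PC3 and was close to absent in VCaP. This is the ligand most widely made in tissues and the one most studied in carcinoma. In PC3 it was at 149, 140.1 and 157 CPM in NSI and at 111, 103 and 93.4 CPM in siFOXA1. Every siFOXA1 library was below every NSI library. The means were 149 ± 8.51 and 102 ± 8.94 CPM (SD, n = 3 each), a log2 difference of −0.54 (SE 0.10). In VCaP the deposited counts were 0.5, 2 and 6 in NSI and 2, 0.5 and 3 in siFOXA1. The summed counts, 8.5 in NSI and 5.5 in siFOXA1, were rounded to 9 and 6. With no TMM scaling they give 0.0565 CPM, with an exact Poisson 95% interval of 0.0258 to 0.107, and 0.0389 CPM (0.0143 to 0.0847). These overlapping intervals cover counting error only. TGFB1 was under the filter on low counts there and has no VCaP difference.

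TGFB2 (ENSG00000092969.11_3, chromosome 1, 218519577 to 218617961, plus strand), the ligand that depends most on TGFBR3, was low in both lines. In PC3 it was at 7.33, 5.75 and 6.81 CPM in NSI and at 5.48, 4.88 and 5.15 CPM in siFOXA1. All siFOXA1 values were below the NSI values, by a small margin, and the log2 difference was −0.36 (SE 0.12), not called in the main fit. It was called in 3 of 12 alternatives, among them the replicate block (−0.35, SE 0.09). The VCaP libraries had it at 1.77, 1.45 and 3.01 CPM in NSI and at 1.79, 1.99 and 0.857 CPM in siFOXA1. These groups overlapped, with a log2 difference of −0.44 (SE 0.34). It was −0.07 without NSI replicate 3 and −0.15 without siFOXA1 replicate 3, and reached −0.66 without siFOXA1 replicate 2. Over 27.1% of their length the TGFB2 exons are shared with TGFB2-OT1 on the same strand, and fragments there were divided between both genes, so its level is uncertain.

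**Figure D1:**
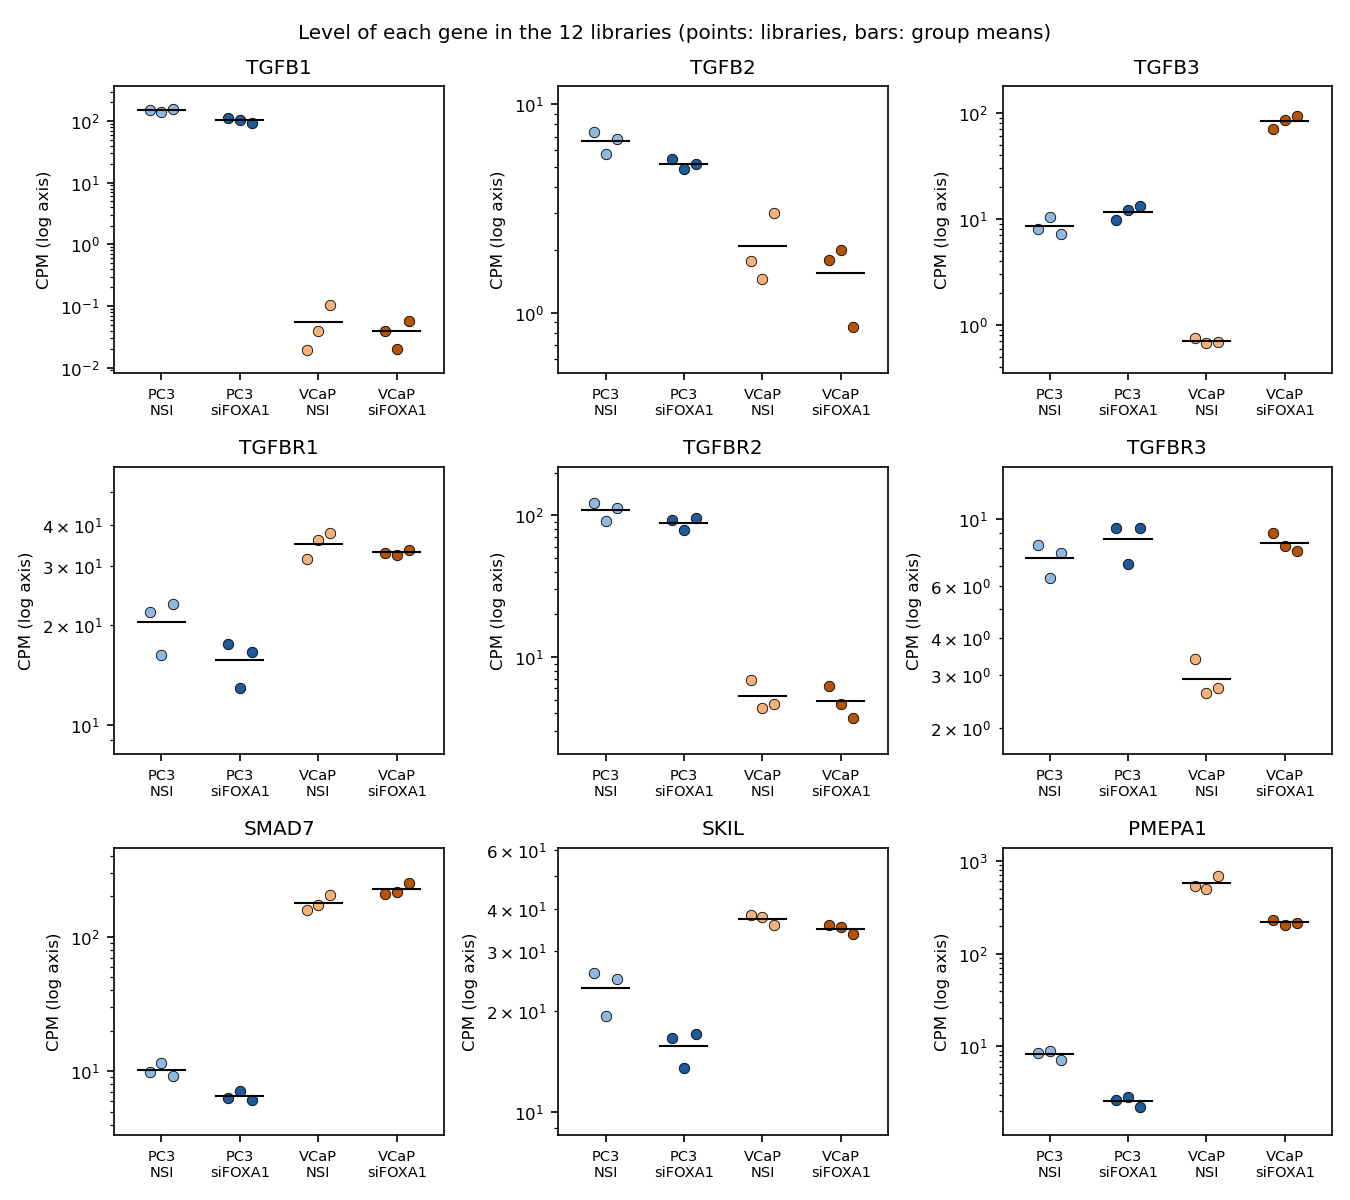
Level of each of the 9 genes in the 12 libraries, in CPM on a log axis that differs between panels. Points are libraries, horizontal bars are the means of the 3 libraries of a group. TGFB3 in VCaP goes from 0.677 to 0.751 CPM in NSI to 71.3 to 93.6 CPM in siFOXA1, and PMEPA1 is lower in siFOXA1 in both lines.

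Per kilobase of exon, the makeup of the ligand pool differed by line and, in VCaP, by siRNA. In PC3 TGFB1 held 92.4% ± 1.14 of the summed ligand level in NSI and 87.5% ± 2.12 in siFOXA1 (SD, n = 3 each), and TGFB3 held 5.32% ± 1.26 and 10.1% ± 2.05. In VCaP NSI, TGFB2 held 58.7% ± 7.69 and TGFB3 38.8% ± 9.04 of a small pool. In VCaP siFOXA1, TGFB3 held 98.9% ± 0.454. The summed ligand level, with each line scaled on its own, was 58.1 ± 2.61 CPM per kilobase in PC3 NSI and 42.2 ± 2.67 in PC3 siFOXA1. It was 0.686 ± 0.176 in VCaP NSI and 30.3 ± 3.98 in VCaP siFOXA1. The VCaP pool with FOXA1 siRNA thus lay below both PC3 pools, and the 3 VCaP NSI libraries lay below all others. Transcript levels do not show how much ligand is secreted or active.

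**Figure D2:**
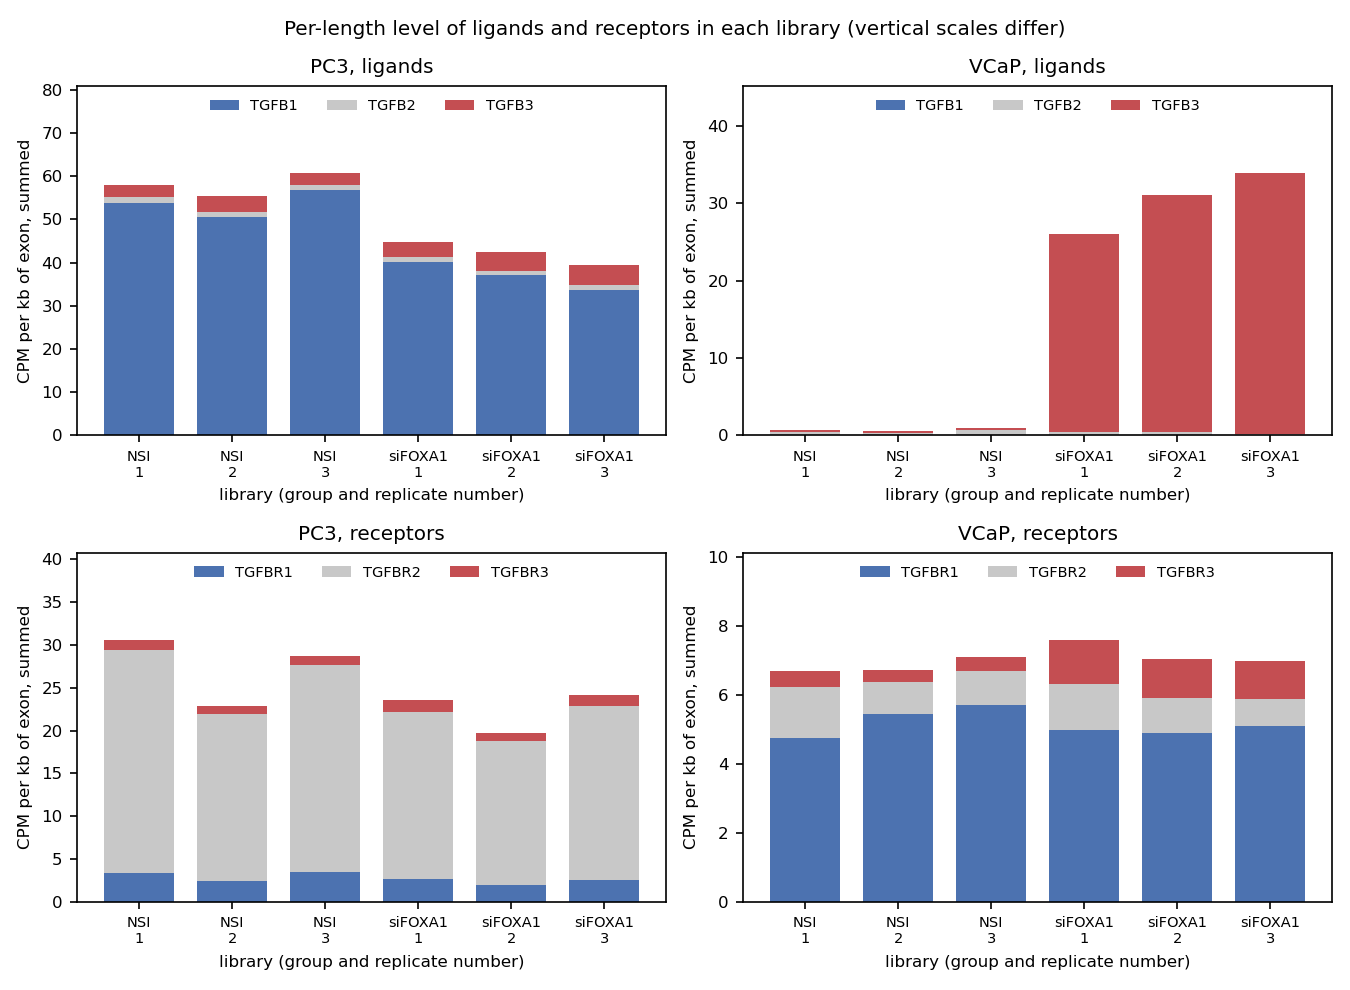
Stacked bars give the per-length level of the ligands (top) and receptors (bottom) in each library, in CPM per kilobase of exon, with a vertical scale of its own in each panel. TGFB1 fills 92.4% of the PC3 NSI ligand bars on average and TGFB3 98.9% of the VCaP siFOXA1 ligand bars, while TGFBR2 leads the receptors in PC3 and TGFBR1 in VCaP.

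Of the receptors, TGFBR3 was called higher in VCaP, and TGFBR1 and TGFBR2 were called in neither line in the main fit. TGFBR3 (ENSG00000069702.10_3, chromosome 1, 92145902 to 92371892, minus strand) was at 3.41, 2.61 and 2.73 CPM in the VCaP NSI libraries and at 9.03, 8.11 and 7.82 CPM in the siFOXA1 libraries. The groups were well apart. The means were 2.92 ± 0.431 and 8.32 ± 0.630 CPM (SD, n = 3 each), a log2 difference of 1.51 (SE 0.12). In PC3 it was at 8.18, 6.37 and 7.70 CPM in NSI and at 9.37, 7.07 and 9.32 CPM in siFOXA1. The PC3 groups overlapped and replicate 2 was the lowest library of each, with a log2 difference of 0.21 (SE 0.15).

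TGFBR1 (ENSG00000106799.12_3, chromosome 9, 101867371 to 101916474, plus strand), the receptor kinase that activates SMAD2 and SMAD3, was at 21.9, 16.2 and 23.1 CPM in PC3 NSI and at 17.5, 13.0 and 16.5 CPM in PC3 siFOXA1. In VCaP it was at 31.4, 35.9 and 37.7 CPM in NSI and at 32.9, 32.4 and 33.7 CPM in siFOXA1. Both pairs of groups overlapped. The log2 differences were −0.38 (SE 0.16) in PC3 and −0.08 (SE 0.07) in VCaP. TGFBR2 (ENSG00000163513.17_3, chromosome 3, 30647994 to 30735634, plus strand), the kinase that binds ligand first, was at 123, 91.6 and 113.5 CPM in PC3 NSI and at 92.1, 78.9 and 95.6 CPM in PC3 siFOXA1. In VCaP it was at 6.84, 4.38 and 4.69 CPM in NSI and at 6.23, 4.65 and 3.69 CPM in siFOXA1. Here too both pairs of groups overlapped, with log2 differences of −0.30 (SE 0.13) and −0.13 (SE 0.22). Within each numbered pair of PC3 libraries, siFOXA1 was below NSI for TGFBR1 and for TGFBR2. With the replicate block the PC3 differences were −0.38 (SE 0.07) for TGFBR1 and −0.29 (SE 0.06) for TGFBR2, and both were called. Of 12 alternatives in PC3, TGFBR1 was called in 3 and TGFBR2 in 2. The VCaP difference of TGFBR2 was 0.08 without NSI replicate 1 and 0.04 without siFOXA1 replicate 3, so its sign rested on single libraries.

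Among the 3 receptors, TGFBR2 held 84.9% ± 0.746 of the summed per-length level in PC3 NSI and 84.1% ± 0.944 in PC3 siFOXA1 (SD, n = 3 each). In VCaP TGFBR1 led, with 77.4% ± 5.49 in NSI and 69.4% ± 3.599 in siFOXA1. The share of TGFBR3 in VCaP was 6.07% ± 1.02 in NSI and 16.4% ± 0.497 in siFOXA1. That of TGFBR2 in VCaP siFOXA1 was 14.2% ± 3.10. These siFOXA1 shares overlapped, with TGFBR2 the higher in replicate 1 (17.4% against 16.9%). The summed receptor level was 6.83 ± 0.213 CPM per kilobase in VCaP NSI and 7.21 ± 0.333 in VCaP siFOXA1. In PC3 it was 27.4 ± 4.05 and 22.5 ± 2.39.

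The feedback genes had different patterns. PMEPA1 was lower in siFOXA1 in both lines, SMAD7 was lower in PC3 and higher in VCaP, and SKIL was lower in PC3 and overlapped NSI in VCaP. PMEPA1 (ENSG00000124225.15_4, chromosome 20, 56223448 to 56286592, minus strand) was at 8.49, 9.02 and 7.20 CPM in PC3 NSI and at 2.62, 2.88 and 2.21 CPM in PC3 siFOXA1. In VCaP it was at 542, 496 and 689 CPM in NSI and at 233, 203 and 214 CPM in siFOXA1. In each line the groups lay apart, although the lines differed in level by far more than the siRNA groups did. The log2 differences were −1.68 (SE 0.14) in PC3, with means of 8.24 ± 0.936 and 2.57 ± 0.335 CPM, and −1.41 (SE 0.12) in VCaP, with means of 576 ± 101 and 217 ± 15.0 CPM (SD, n = 3 each). PMEPA1 thus kept 31.2% of its NSI level in PC3 and 37.7% in VCaP.

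An antisense gene that starts near the PMEPA1 start had a lower level as well. RP5-1059L7.1 (ENSG00000278709.1_4, chromosome 20, 56285239 to 56287836, plus strand), named here after its values were seen, starts 1353 bases from the PMEPA1 start on the other strand. In VCaP, where counting used strand, it was at 13.9, 14.6 and 19.9 CPM in NSI and at 3.22, 2.68 and 2.68 CPM in siFOXA1. It fell by 2.50 on the log2 scale (SE 0.16, edgeR adjusted p 2.52e-06), and its lowest NSI library was above all siFOXA1 libraries. In PC3 it was under 0.4 CPM in all 6 libraries. Its exons cover 6.58% of the exon length of PMEPA1, and in PC3 reads from both strands there cannot be told apart.

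SMAD7 (ENSG00000101665.8_2, chromosome 18, 46446223 to 46477081, minus strand) was at 9.92, 11.5 and 9.26 CPM in PC3 NSI and at 6.33, 7.13 and 6.08 CPM in PC3 siFOXA1. In VCaP it was at 159, 173 and 205 CPM in NSI and at 209, 216 and 253 CPM in siFOXA1. The PC3 siFOXA1 libraries lay below the NSI libraries and the VCaP siFOXA1 libraries above theirs, the latter by a narrow margin between NSI replicate 3 and siFOXA1 replicate 1. The log2 differences were −0.65 (SE 0.12) in PC3 and 0.34 (SE 0.11) in VCaP. The VCaP call was made in 9 of 12 alternatives, within a range of 0.24 to 0.44. SKIL (ENSG00000136603.13_4, chromosome 3, 170075514 to 170114623, plus strand) was at 25.8, 19.2 and 24.9 CPM in PC3 NSI and at 16.6, 13.5 and 17.1 CPM in PC3 siFOXA1. The VCaP libraries had it at 38.4, 37.8 and 35.9 CPM in NSI and at 35.9, 35.4 and 33.7 CPM in siFOXA1. The PC3 groups were apart and the VCaP groups overlapped, with log2 differences of −0.57 (SE 0.14) and −0.09 (SE 0.06). The PC3 call for SKIL was made in 9 of 12 alternatives, within a range of −0.64 to −0.47.

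**Figure D3:**
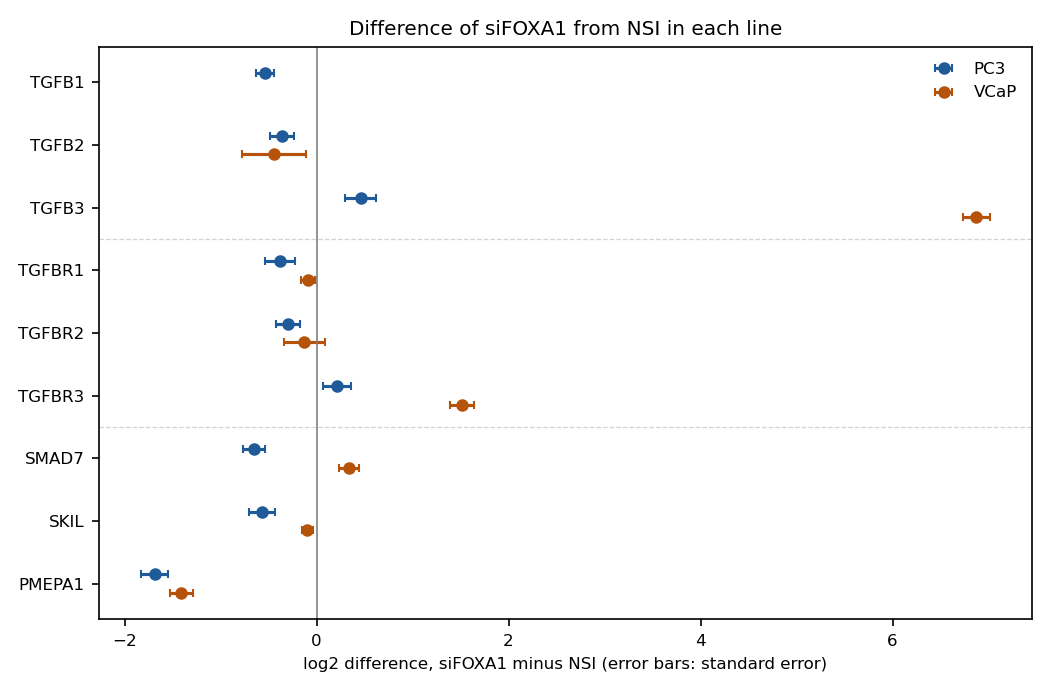
Log2 difference of siFOXA1 from NSI for each gene in PC3 (blue) and VCaP (orange), with the standard error as bars and dashed lines between ligands, receptors and feedback genes. TGFB3 (6.87) and TGFBR3 (1.51) lie far to the right in VCaP, PMEPA1 lies to the left in both lines (−1.68 and −1.41), and TGFB1 has no VCaP point because it was under the filter.

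The start-site sequences of the feedback genes whose windows hold a forkhead motif are shown, with the motif in capitals. That of SMAD7 is chr18:46475704-46475953 (GRCh37, minus strand), 250 bases before a RefSeq start that lies 1378 bases inside the deposited gene, with the motif 7 to 13 bases before that start. That of PMEPA1 is chr20:56285646-56285883 (GRCh37, minus strand), the 238 bases of a window that lie outside the exons of PMEPA1 itself. Its motif is 38 to 44 bases before a RefSeq start 959 bases inside the deposited gene. These PMEPA1 bases lie in an exon of RP5-1059L7.1 on the other strand.
SMAD7: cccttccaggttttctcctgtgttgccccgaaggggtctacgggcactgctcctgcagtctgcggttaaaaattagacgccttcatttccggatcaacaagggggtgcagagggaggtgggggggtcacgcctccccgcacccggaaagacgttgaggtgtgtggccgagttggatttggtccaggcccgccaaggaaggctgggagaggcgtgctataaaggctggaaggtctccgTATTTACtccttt
PMEPA1: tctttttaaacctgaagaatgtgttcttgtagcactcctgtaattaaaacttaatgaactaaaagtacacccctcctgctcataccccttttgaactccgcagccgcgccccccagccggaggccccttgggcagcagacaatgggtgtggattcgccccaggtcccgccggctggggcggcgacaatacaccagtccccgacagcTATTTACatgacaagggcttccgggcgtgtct
Over the 9 genes, 4 of 23 windows held a forkhead motif (1 each of TGFB2, TGFBR2, SMAD7 and PMEPA1), against 8.13% of all 35116 windows. The SMAD-binding letters CAGAC, on either strand, were in 11 of 23 windows and in 38.0% of all windows. A match is a description of these letters and not a binding site, and their absence from TGFB3 says nothing of FOXA1 binding elsewhere.

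By call, 4 of the 9 genes differed in PC3 (TGFB1, SMAD7, SKIL and PMEPA1, all lower). Of all 26478 genes tested there, 27.7% were called, with 13.9% of all tested higher and 13.9% lower. Where the model held the replicate number, which was taken to pair the PC3 libraries, as a block, 8 of 9 were called. TGFB3 was higher, TGFBR3 was not called and the other 7 were lower. The same 8 genes were called without PC3 NSI replicate 2. In VCaP 4 of 8 tested were called (TGFB3, TGFBR3 and SMAD7 higher, PMEPA1 lower), where 45.8% of 22939 genes were called, 22.5% higher and 23.3% lower. Groups did not overlap for 5 of the 9 genes in PC3, where 45.1% of all genes tested lay apart, and for 4 in VCaP, where 55.9% did. Since the genes were chosen with this contrast known, nothing is read from these counts.

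The difference between the lines in the siRNA effect, the VCaP log2 difference minus that of PC3 in a fit of all 12 libraries, was called for 3 of the 9 genes, against 22.1% of 30450 genes tested. It was 6.40 (SE 0.24) for TGFB3, 1.28 (SE 0.21) for TGFBR3 and 0.97 (SE 0.17) for SMAD7, all more positive in VCaP. For PMEPA1, lower in both lines, it was 0.26 (SE 0.19). For SKIL it was 0.46 (SE 0.16), for TGFBR1 0.28 (SE 0.19), for TGFBR2 0.16 (SE 0.26) and for TGFB2 −0.10 (SE 0.37), none of which was called. The difference for SKIL passed in 3 of 18 alternatives, namely the replicate block, no filter and PC3 NSI replicate 2 left out. For TGFB2 the sign turned without VCaP NSI replicate 3 (0.28) or VCaP siFOXA1 replicate 3 (0.19), and for TGFBR2 without VCaP siFOXA1 replicate 1 (−0.06) and, at a value close to 0, without PC3 siFOXA1 replicate 2. FOXA1 itself was lowered more in VCaP (difference −1.94, SE 0.15, edgeR adjusted p 2.98e-07).

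By the edgeR test the control libraries of the lines, a contrast that did not choose the genes, differed for all 9 genes. Of these, TGFB1 passed the filter on low counts only through its PC3 libraries. Of the 28170 genes tested 87.0% were called (42.4% higher and 44.6% lower in VCaP). In VCaP NSI against PC3 NSI the feedback genes and TGFBR1 were higher. PMEPA1 was higher by 6.13 on the log2 scale (SE 0.17, adjusted p 3.28e-11), SMAD7 by 4.13 (SE 0.13, adjusted p 1.08e-10), TGFBR1 by 0.77 (SE 0.14, adjusted p 0.000266) and SKIL by 0.68 (SE 0.12, adjusted p 0.000232). The ligands and the other receptors were lower in VCaP. The log2 fold change was −4.37 for TGFBR2 (SE 0.19, adjusted p 1.01e-09), −3.59 for TGFB3 (SE 0.18, adjusted p 4.64e-09), −1.67 for TGFB2 (SE 0.23, adjusted p 3.18e-05) and −1.35 for TGFBR3 (SE 0.16, adjusted p 7.00e-06). TGFB1 went from 149 CPM to the few counts given above. Its call is a description, because the filter kept it only where it was high. No gene had overlapping groups, nor did 88.7% of all genes tested. FOXA1 was 0.85 higher in VCaP (SE 0.12, adjusted p 4.01e-05).

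Ordered by per-length level, TGFB1 was first in PC3 NSI (53.7 ± 3.07 CPM per kilobase) and TGFBR2 next (23.2 ± 3.41), each apart from the gene below it. SKIL (3.23), SMAD7 (3.20), TGFBR1 (3.08) and TGFB3 (3.07) followed with overlapping libraries, and then PMEPA1 (1.58), TGFB2 (1.31) and TGFBR3 (1.05), whose neighbours also overlapped. In PC3 siFOXA1 TGFB3 was the third (4.22 ± 0.606), apart from TGFBR1 (2.37 ± 0.363) below it, and PMEPA1 was last (0.492 ± 0.0642). In VCaP NSI PMEPA1 was first (110.3 ± 19.3) and SMAD7 next (56.0 ± 7.44). TGFBR1 (5.29) and SKIL (5.18) overlapped, TGFBR2 (1.13) stood apart, TGFBR3 (0.414) and TGFB2 (0.411) overlapped, and TGFB3 (0.255 ± 0.0138) stood above only TGFB1. In VCaP siFOXA1 SMAD7 was first (70.8 ± 7.29), PMEPA1 next (41.6 ± 2.88) and TGFB3 the third (30.01 ± 4.06), each apart from its neighbours.

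Another 115 genes of the wider family, in 9 lists, were tested in the same fits. In PC3 104 were tested, of which 20 rose and 17 fell, where 13.9% of all genes tested rose and 13.9% fell. Their median log2 fold change was −0.00047, against −0.01 over all genes tested. Without TMM scaling the split was 25 and 12. It was 13 and 10 without PC3 NSI replicate 3, and 14 and 8 without PC3 siFOXA1 replicate 1. In VCaP 94 were tested, of which 46 rose and 19 fell, where 22.5% of all genes tested rose and 23.3% fell, and the median was 0.28 against 0.02. Of 107 tested for the difference between the lines, 32 were more positive and 16 more negative in VCaP, where 11.1% of all genes tested were called in each direction. The counts of single lists that follow were not tested for enrichment and stand beside these same shares of all genes. The lists were chosen with earlier results of these data known, so all these counts are a description. Beside these, 10 of 10 interferon-response genes rose in PC3 (median 3.31) and 8 rose and 1 fell in VCaP (median 1.35), and 10 of 10 cell cycle genes fell in each line (medians −0.83 and −0.87). The part of these shifts in the results was not tested.

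Of 12 genes of latency and activation tested in PC3, 5 rose and 1 fell (median 0.34), where 13.9% of all genes rose and 13.9% fell. Of 13 in VCaP, 7 rose and 1 fell (median 0.73), where 22.5% of all genes rose and 23.3% fell. THBS1, thrombospondin, which frees latent TGF-β, was at 37.2 and 36.8 CPM in the PC3 groups and in VCaP rose from 1059 ± 85.2 CPM with NSI to 6889 ± 1191 CPM with siFOXA1 (SD, n = 3 each; log2 fold change 2.701, SE 0.14, adjusted p 9.14e-07). ITGB8, the integrin subunit that activates latent TGFB1 and TGFB3, was at 26.5 and 28.5 CPM in PC3 and in VCaP rose from 20.8 ± 2.03 to 144 ± 11.7 CPM (2.80, SE 0.09, adjusted p 1.18e-07). FURIN, the protease that cleaves the propeptide, rose in PC3 from 44.1 ± 2.83 to 78.5 ± 3.00 CPM (0.83, SE 0.09, adjusted p 0.000290) and in VCaP by 0.73 (adjusted p 3.30e-05). LTBP2, of the latent TGF-β binding protein family, rose in PC3 by 0.62 (adjusted p 0.00237). LTBP1, which tethers the latent complex to the matrix, fell in VCaP from 62.8 ± 12.5 to 23.3 ± 2.18 CPM (−1.43, SE 0.13, adjusted p 2.47e-05) and in PC3 by 0.34 (adjusted p 0.0307), a PC3 call made in 7 of 12 alternatives.

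Of the genes commonly induced by TGF-β, 7 of 26 tested rose and 3 fell in PC3 (median 0.22), against 13.9% and 13.9% of all genes. In VCaP 15 of 22 rose and 2 fell (median 0.84), against 22.5% and 23.3% of all genes. The difference between the lines was called for 14 of 26, against 22.1% of all genes, 12 of them more positive in VCaP, among them CDKN2B (2.36), SPHK1 (1.62), CDKN1A (1.42) and JUNB (1.11). ACTA2, smooth muscle actin, rose in PC3 by 1.66 from 0.493 CPM (SE 0.20, adjusted p 0.000651). CDKN2B, a cyclin-dependent kinase inhibitor, fell in PC3 from 314 ± 41.5 to 193 ± 11.6 CPM (−0.70, SE 0.11, adjusted p 0.00283) and rose in VCaP from 0.780 ± 0.0623 to 2.50 ± 0.225 CPM (1.68, SE 0.15, adjusted p 1.99e-05). CDKN1A, another such inhibitor that p53 also induces, rose in VCaP from 33.8 ± 7.94 to 104.9 ± 15.4 CPM (1.64, SE 0.16, adjusted p 3.92e-05). SNAI2, a repressor of epithelial genes, fell in PC3 by 0.49 (SE 0.10, adjusted p 0.00830). In VCaP, FN1 (fibronectin) fell by 0.87 (adjusted p 0.00549) and CYR61 by 0.80 (adjusted p 0.000530). The list holds COL1A1, also a fibroblast marker, which rose in PC3 from 20.9 to 31.5 CPM (0.59, adjusted p 0.00248) and was at 2.10 and 1.05 CPM in VCaP. How far the fibroblast markers bear on these counts was not tested.

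**Figure D4:**
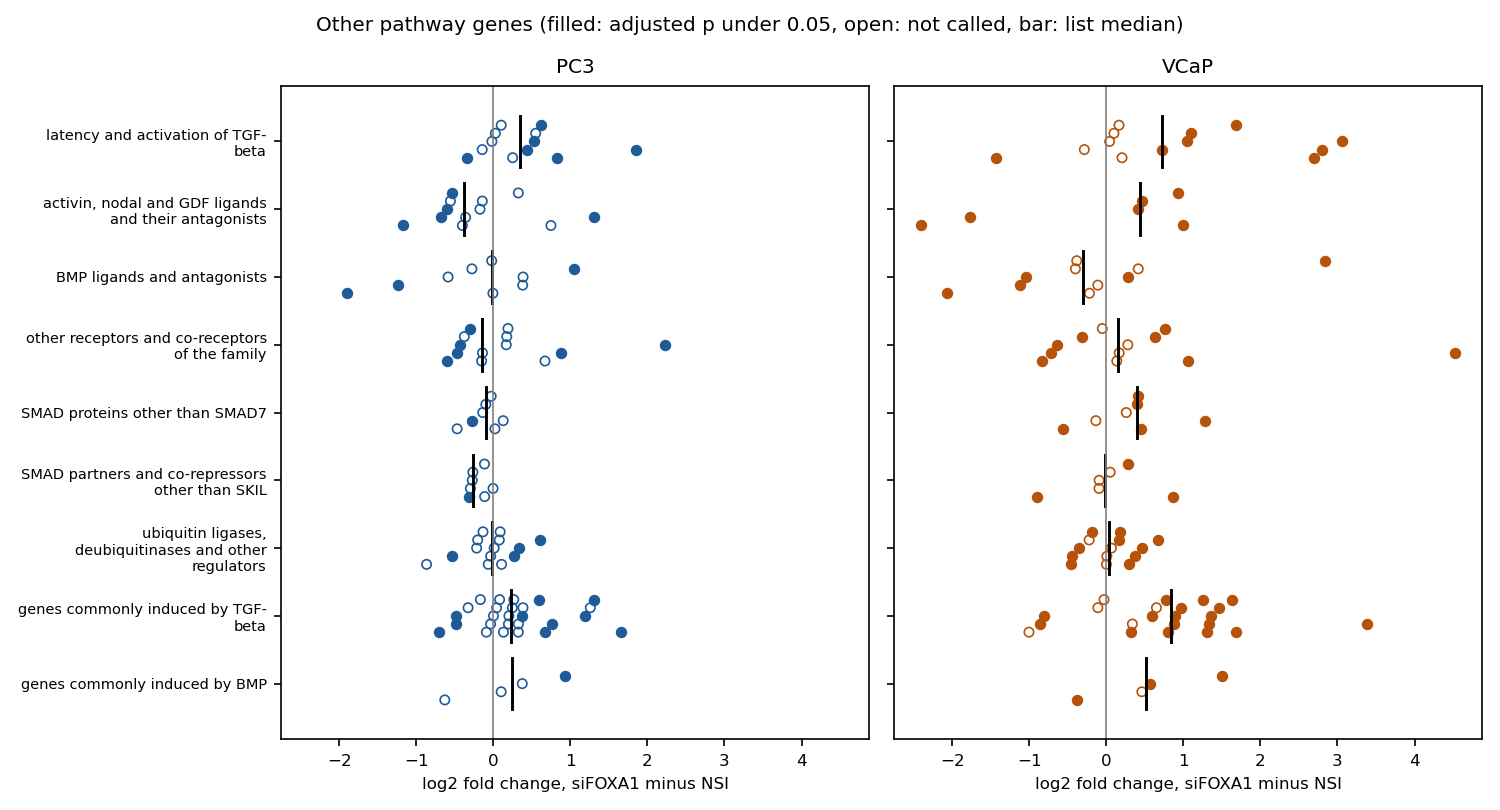
Log2 fold change of siFOXA1 against NSI for each tested gene of the 9 wider pathway lists, in PC3 (left) and VCaP (right), with filled points for an adjusted p under 0.05, open points for genes not called and a black bar at the list median. Of the TGF-β induced genes 15 rose in VCaP and 7 in PC3, with medians of 0.84 and 0.22.

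Of the SMAD genes other than SMAD7, 4 of 7 rose and 1 fell in VCaP (median 0.40), and in PC3 none rose and 1 of 7 fell (median −0.10). SMAD6, the inhibitor of BMP receptor signals, rose in VCaP from 4.54 ± 0.887 to 11.1 ± 1.16 CPM (1.29, SE 0.15, adjusted p 9.02e-05). SMAD4, the partner of all receptor-activated SMADs, rose there by 0.45 (adjusted p 0.000223), and SMAD5, of the BMP branch, fell by 0.57 (adjusted p 6.24e-05). SMAD2 fell in PC3 by 0.28 (adjusted p 0.0330), a call made in 3 of 12 alternatives. Of the SMAD partners, 1 of 7 fell in PC3 (TGIF1, −0.32, adjusted p 0.0156, called in 7 of 12 alternatives). In VCaP 2 of 6 rose, the co-repressor TGIF2 by 0.87 (adjusted p 7.96e-05) and ZFYVE9 by 0.28 (adjusted p 0.0146, called in 11 of 12), and TGIF1 fell by 0.90 (adjusted p 1.96e-05).

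Of the other receptors, 2 of 13 rose and 4 fell in PC3, and 4 of 12 rose and 4 fell in VCaP. ACVRL1 (ALK1), a receptor of endothelium for BMP9 and TGF-β, rose in VCaP from 0.782 ± 0.223 to 18.1 ± 1.31 CPM (4.53, SE 0.16, adjusted p 1.78e-07), while the endothelial marker CDH5 was under 1 CPM in all groups and VWF was at 4.30 and 1.88 CPM in VCaP. ENG (endoglin), its co-receptor, rose in PC3 from 7.73 ± 0.584 to 14.3 ± 0.496 CPM (0.88, SE 0.10, adjusted p 0.000398) and fell in VCaP from 38.5 ± 3.59 to 24.6 ± 1.97 CPM (−0.64, SE 0.09, adjusted p 0.000258). In VCaP the activin receptor ACVR2A rose by 1.06 (adjusted p 0.000421) and the BMP receptor BMPR1A fell by 0.84 (adjusted p 1.54e-05). In PC3 the activin receptors ACVR2B and ACVR1B fell by 0.61 and 0.47 (adjusted p 0.00735 and 0.0119, the latter called in 11 of 12 alternatives). ACVR1B averaged 52.4 CPM in VCaP NSI and 89.1 CPM in VCaP siFOXA1, and ACVR2B averaged 65.9 and 72.5 CPM there.

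Among activin, nodal and GDF ligands and antagonists, 1 of 12 rose and 4 fell in PC3 (median −0.38), and 4 of 6 rose and 2 fell in VCaP (median 0.44). GDF15, a stress-induced ligand, fell in PC3 from 473 ± 39.9 to 211 ± 59.7 CPM (−1.17, SE 0.19, adjusted p 0.00261), and FST (follistatin), which traps activin, fell from 437 ± 17.1 to 273 ± 8.38 CPM (−0.68, SE 0.08, adjusted p 0.000581). GDF15 averaged 20.4 CPM in VCaP NSI and 28.2 CPM in VCaP siFOXA1, and FST 0.629 and 0.182 CPM. In VCaP GDF11 rose by 1.00 (adjusted p 5.74e-06) and INHBA, an activin subunit, by 0.93 (adjusted p 0.00117), and INHBB, another subunit, fell from 6.35 ± 1.64 to 1.20 ± 0.0949 CPM (−2.40, SE 0.20, adjusted p 1.19e-05). GDF11 averaged 45.0 CPM in PC3 NSI and 30.9 CPM in PC3 siFOXA1, INHBA 58.7 and 45.8 CPM, and INHBB 24.8 and 22.5 CPM. Of the BMP ligands and antagonists, 1 of 9 rose and 2 fell in PC3, and 2 of 10 rose and 3 fell in VCaP. BMP6 fell in PC3 from 58.1 ± 14.2 to 24.7 ± 3.51 CPM (−1.23, SE 0.18, adjusted p 0.00197). In VCaP GREM1 (gremlin), a BMP antagonist, fell by 1.12 and BMP8B by 1.04 (adjusted p 1.12e-05 and 1.19e-05).

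Of the ubiquitin ligases, deubiquitinases and other regulators, 3 of 14 rose and 1 fell in PC3, and 6 of 14 rose and 4 fell in VCaP. WWP1, a ubiquitin ligase that acts on TGFBR1 with SMAD7, fell in PC3 by 0.53 (adjusted p 0.00390) and rose in VCaP by 0.67 (adjusted p 0.000172). SMURF2, a ligase of the same kind, rose in PC3 by 0.61 (adjusted p 0.00992), as did USP11, a deubiquitinase, by 0.33 (adjusted p 0.0163, called in 10 of 12 alternatives). USP11 averaged 18.3 CPM in VCaP NSI and 14.3 CPM in VCaP siFOXA1, and SMURF2 33.0 and 33.1 CPM. In VCaP NEDD4L fell by 0.46 (adjusted p 0.00123), BAMBI, a decoy receptor, by 0.44 (adjusted p 0.0170, called in 10 of 12), and LDLRAD4, a relative of PMEPA1, rose by 0.47 (adjusted p 0.0377, called in 7 of 12). Of 4 ID genes, the usual targets of BMP, ID3 rose in PC3 by 0.93 (adjusted p 0.00214). In VCaP ID1 rose from 17.4 ± 6.11 to 49.4 ± 7.06 CPM (1.50, SE 0.22, adjusted p 0.000420) and ID2 by 0.56 (adjusted p 0.00311), while ID4 fell by 0.38 (adjusted p 0.0351, called in 9 of 12).

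Across the 12 libraries, the levels most like that of TGFB3, by Pearson r of log2 CPM among 17834 genes, were those of CSRP1 (0.985), ZNF589 (0.981) and PAQR8 (0.975). Those most like PMEPA1 were STIP1 (0.998), ENOX1 (0.998) and WTAP (0.996). These values describe 4 groups of libraries that share lines and kits, and have no p. Pearson r takes no account of the size of a change. ZNF589, for example, averaged 22.8 and 26.1 CPM in PC3 NSI and siFOXA1 and 16.2 and 36.5 CPM in VCaP NSI and siFOXA1. In the same order STIP1 averaged 259, 209, 652 and 539 CPM, and PMEPA1 8.24, 2.57, 576 and 217 CPM. CSRP1 averaged 76.2 and 72.0 CPM in the PC3 groups, where TGFB3 averaged 8.52 and 11.7 CPM.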

How the data were processed

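Each library had 1 table of estimated counts per gene. The authors' expected counts come from featureCounts, per the file headers, summing fragments with both ends mapped over the exons of each gene of GENCODE v28lift37 basic (GRCh37) and dividing fragments that mapped to several places or genes. Per the submitters' processing notes, the tools were STAR 2.7.3a, featureCounts and Subread 2.0.0. The deposited counts were not normalized, and 54.8% to 75.2% of nonzero values were not whole. The tables also gave the exon length.

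Counts were rounded to whole numbers, 0.5 upward. Each line, the NSI libraries of both lines, and all 12 libraries were fitted with edgeR 4.0.16 in R 4.3.3 (TMM, filterByExpr, two-sided quasi-likelihood test, Benjamini-Hochberg adjustment over all genes tested), after tests on simulated counts. The SE is the size of the log2 fold change over the square root of F. Promoter windows were the 250 bases before RefSeq start sites. Alternatives were DESeq2 1.42.0, its size factors, library size alone, no filter, the replicate block, each library left out, no division by length and, chosen after seeing the data, 0.5 rounded to even.

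Same-numbered PC3 libraries deviated together (correlations 0.41, 0.57 and 0.21 across genes), and the numbers were taken to pair them. The pairing is not clear for every number. PC3 siFOXA1 replicate 3 correlated better with NSI replicate 1 (0.35) than with NSI replicate 3 (0.21). The titles do not say what a number shares. No library was a copy of another.

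The 9 genes, the lists, the markers and the motifs were chosen with earlier results of these data known. Named genes were FOXA1, the 9 genes, of each list and line up to 2 called rises and 2 called falls that were largest among genes at 1 CPM or more with no overlap between groups, of all lists the 3 largest called differences between the lines of each sign among genes with a mean of 1 CPM or more over the 12 libraries, and the 3 genes most like TGFB3 and PMEPA1. Others named were chosen after their values were seen. Of the marker genes, 1 had no match and was not analysed here. Some genes of the lists and markers are counted but their own values are not reported here.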

Additional observations from a re-analysis of the deposited data

Results flagged for a closer look

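The effect of siFOXA1 in VCaP differed from that in PC3 by a test of the difference itself (edgeR adjusted p under 0.05) in 3 of the 9 genes and in 48 of 107 genes of the wider family, against 22.1% of all genes tested. Given here are the 3 and, of the 48, the 6 named by the rule for the largest differences at a mean of 1 CPM or more. The lists of the wider family were chosen with earlier results of these data known, so the count of 48 is a description. The values are the VCaP log2 effect minus that of PC3. For TGFB3 (6.40), TGFBR3 (1.28) and SMAD7 (0.97), the genes were chosen with the contrast known, so the values are a description. SMAD7 was lower in all 3 PC3 siFOXA1 libraries than in any PC3 NSI library and higher in all 3 VCaP siFOXA1 libraries than in any VCaP NSI library.

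Of the wider family, the difference was 3.90 for SNAI2 (SE 0.47, adjusted p 2.25e-05), 2.702 for THBS1 (SE 0.20, adjusted p 1.86e-07) and 2.68 for ITGB8 (SE 0.17, adjusted p 3.68e-08), all more positive in VCaP. SNAI2 averaged 0.0443 and 0.481 CPM in the VCaP groups against 71.2 and 50.8 CPM in the PC3 groups, so its VCaP effect rests on few counts. The difference was −2.28 for INHBB (SE 0.21, adjusted p 1.81e-06), −2.20 for GREM1 (SE 0.23, adjusted p 5.65e-06) and −1.54 for ENG (SE 0.13, adjusted p 9.19e-07). GREM1 averaged 0.180 and 0.372 CPM in PC3 against 17.0 and 7.80 CPM in VCaP. The line cannot be told apart from the kit, the dose, the medium and the strand counting.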

How the results depend on the processing

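No result changed sign while called. The 37 pathway calls in PC3 ranged from 22 to 45 when 1 library was left out (23 without NSI replicate 3, 22 without siFOXA1 replicate 1), and the 4 calls among the 9 genes ranged from 3 to 8 (8 without NSI replicate 2, which made TGFB2, TGFB3, TGFBR1 and TGFBR2 calls as well). With the replicate block, 8 of the 9 genes and 52 pathway genes were called in PC3. In VCaP, where same-numbered libraries correlated at 0.09, 0.04 and 0.35, the block gave 4 and 66 calls against 4 and 65 without it. In neither line did every library correlate best with its own number. No block was fitted between the control libraries, since a number in PC3 and in VCaP is not the same sample source. The calls in VCaP, between the control libraries and between the lines stayed within 1.5 times under each alternative.

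Without division by exon length the shares moved by more than 1 SD for TGFB1 in PC3 NSI (90.7%), TGFB2 in PC3 NSI (4.04%), PC3 siFOXA1 (4.34%), VCaP NSI (72.0%) and VCaP siFOXA1 (1.87%), and TGFB3 in VCaP NSI (26.4%) and VCaP siFOXA1 (98.1%). The same held for TGFBR1 in PC3 NSI (14.8%) and siFOXA1 (13.8%), TGFBR2 in PC3 NSI (79.7%), PC3 siFOXA1 (78.6%) and VCaP siFOXA1 (10.5%), and TGFBR3 in PC3 NSI (5.42%), PC3 siFOXA1 (7.57%) and VCaP siFOXA1 (18.01%).

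Of 807 values of named pathway genes under the alternatives, 33 lost the call. In PC3 these were ACVR1B without siFOXA1 replicate 1 (−0.45), USP11 without NSI replicate 3 (0.30) or siFOXA1 replicate 3 (0.29), and LTBP1, TGIF1 and SMAD2 with library size alone (−0.24, −0.23 and −0.19) and when libraries were left out, from −0.35 to −0.26 over 4 libraries for LTBP1, −0.32 to −0.28 over 4 for TGIF1 and −0.29 to −0.25 over all 6 for SMAD2. SMAD2 was also lost with no filter (−0.29) and with 0.5 rounded to even (−0.25). In VCaP these were ZFYVE9 without NSI replicate 1 (0.22), BAMBI without siFOXA1 replicate 2 or 3 (−0.41 each), ID4 without NSI replicate 1 or 3 (−0.35 each) or siFOXA1 replicate 2 (−0.24), and LDLRAD4 with library size alone (0.45) and without 4 single libraries (0.35 to 0.47). Counts limit TGFB1 in VCaP, with 0.5 to 6 counts a library.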

Other observations

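Genes with any part within 200 kb of the TGFB3 start were compared with TGFB3 after its values were seen. Of 8 such genes 3 were tested in VCaP, and their log2 fold changes ran from −0.07 to 0.55, against 6.87 for TGFB3. C14orf179, which starts 4562 bases away on the other strand, averaged 2.35 CPM in VCaP NSI and 3.45 CPM in siFOXA1 (0.55, SE 0.12, edgeR adjusted p 0.00402), and TTLL5 rose by 0.51 (adjusted p 0.000976). In PC3 TTLL5 fell by 0.46 (adjusted p 0.00937). Of 6 genes within 200 kb of the PMEPA1 start, the antisense gene RP5-1059L7.1 was the only one tested in VCaP. In PC3 ZBP1, an interferon-induced sensor of nucleic acids that starts 90960 bases from PMEPA1, rose from 0.0195 to 1.29 CPM (edgeR adjusted p 0.000112).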
